A study of Homo sapiens with 6 samples.

Results

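The genes of cholesterol and fatty acid synthesis were compared between PC-3 cells depleted of CdGAP and control cells, from the number of sequencing reads counted on each gene. PC-3 is an established cell line from human prostate cancer. CdGAP, encoded by ARHGAP31, is a protein that switches off the small GTPases Rac1 and Cdc42. The genes were taken by symbol from a list of 34 that covers the enzymes, their regulators and 3 sterol transport proteins, and all 34 were found among the 64253 genes of the deposited tables. The pathway has further genes that are not analysed here. The shCdGAP group (labelled shCDGAP) held 3 libraries from PC-3 cells carrying a short hairpin RNA against CdGAP, and the shCon group (labelled shCONTROL) held 3 libraries from PC-3 cells carrying a control hairpin. The hairpin against CdGAP was delivered by lentivirus, and according to the methods the CdGAP-depleted PC-3 cells were selected with puromycin and grown from single cells into clones. Cloning is not described for the control cells, and the clone that was sequenced is not named, so an effect of CdGAP depletion and a difference between a clone and the control cells cannot be told apart. The methods name 3 independent samples per group and do not say what separates them, so p-values measure the spread between these samples, which may be technical.

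Cells make cholesterol from acetyl-CoA through mevalonate, farnesyl diphosphate, squalene and lanosterol, and they make fatty acids from the same acetyl-CoA. Both routes are driven by the SREBP transcription factors, which are held in the endoplasmic reticulum by SCAP and the INSIG proteins when sterols are plentiful and are cut and sent to the nucleus when sterols run low. Excess sterol instead activates the LXR receptors, which switch on the exporters ABCA1 and ABCG1. Prostate cancer cells are known for active lipid synthesis.

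The libraries held 33182796 to 43154039 counted reads. The target gene ARHGAP31 averaged 26.8 ± 0.351 CPM (reads scaled to library size) in shCdGAP and 59.2 ± 1.22 CPM in shCon libraries (n = 3, SD). Its log2 fold change was -1.14 (standard error, SE, 0.0409, edgeR adjusted p = 8.75e-08), or a change of -54.7%. The paper reports a larger reduction of CdGAP mRNA, measured by PCR, and of its protein in a PC-3 clone. The epithelial markers KRT8, KRT18, KRT19 and EPCAM summed to 685 to 704 CPM in shCon and 944 to 1176 CPM in shCdGAP libraries. Mean CPM in shCon and shCdGAP libraries was 185 and 193 for KRT8 and 253 and 270 for KRT18. It was 170 and 348 for KRT19 and 83.0 and 212 for EPCAM. The prostate secretory genes KLK2 and KLK3 were at 0 in every library. The leukocyte markers PTPRC, CD3E and LYZ had at most 1, 0 and 27 reads in a library, while 3 endothelial markers summed to 2.44 to 6.06 CPM. Stromal markers, nearly all COL1A2 and COL1A1, summed to 301 to 307 CPM in shCon and 333 to 341 CPM in shCdGAP libraries, with DCN at no more than 5 reads. COL1A2 averaged 286 CPM in shCon and 279 CPM in shCdGAP libraries. COL1A1 averaged 18.0 CPM in shCon and 57.1 CPM in shCdGAP libraries (log2 fold change 1.67, edgeR adjusted p = 4.38e-08). Adipocyte and hepatocyte markers summed to 11.8 to 12.9 CPM in shCon and 21.4 to 42.0 CPM in shCdGAP libraries, which was nearly all FABP4. The part of these markers in the results was not tested. Fewer cells of a type and less RNA per cell cannot be told apart in such bulk samples.

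One library stood apart. In a chi-square comparison of libraries of the same group, pairs with shCdGAP replicate 2 gave 27.2 to 33.3 per degree of freedom, against 2.59 to 6.94 for the other pairs. Counts of called genes in each list are therefore also given without this library. In that fit 30.0% of all tested genes were called higher and 30.0% lower at an adjusted p under 0.01.

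Most enzymes of cholesterol and fatty acid synthesis lay near their control levels. INSIG1, a regulator, and the sterol enzymes TM7SF2 and SC5D rose by at least 0.5 on the log2 scale, and the exporters ABCA1 and ABCG1 fell by more than 1. All 34 genes had enough reads to be tested, and 29 of them lay within 0.5 of 0 on the log2 fold change scale. So did 11074 of all 16439 tested genes, so this is the state of most genes here. The median size of the log2 fold change was 0.19 over the 34 genes and 0.31 over all 16439 tested genes. At an adjusted p under 0.01, 18 of the 34 genes were called by edgeR's quasi-likelihood test (52.9%), against 46.2% of all tested genes. Of these, 11 were higher in shCdGAP cells, where 24.1% of all genes were called higher, and 7 were lower, where 22.0% were called lower. These shares are near those of all genes. The shCdGAP and shCon libraries did not overlap for 21 of the 34 genes, a separation seen for 67.1% of all tested genes. With a further limit of 1 on the log2 fold change, the share of genes called was 8.56% higher and 4.19% lower over all genes, and in the list INSIG1 was called higher and ABCA1 and ABCG1 lower. Without shCdGAP replicate 2, 12 genes were called higher and 13 lower, at 30.0% of all genes in each direction, and 1 was higher and 2 lower past the limit of 1.

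**Figure D1:**
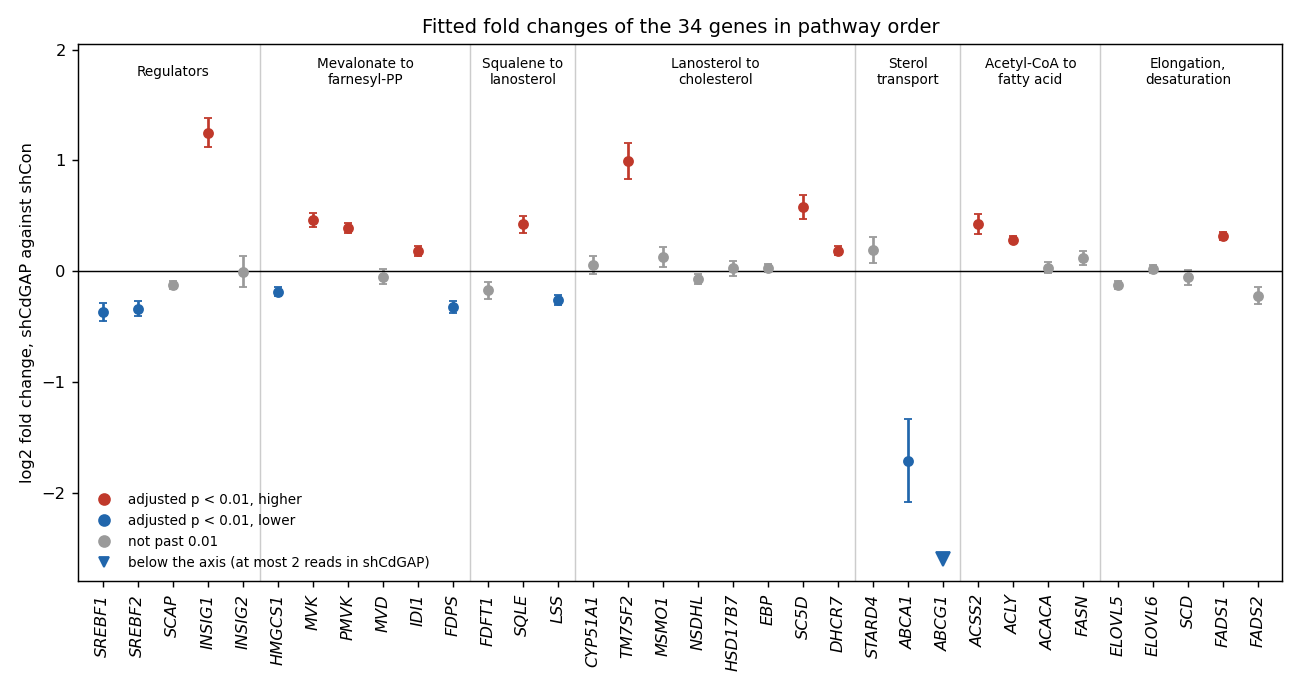
Points give the log2 fold change of shCdGAP against shCon from edgeR with its standard error for each of the 34 genes, ordered from regulators to fatty acid desaturation, and the colour gives the call at an adjusted p of 0.01. Most points lie near 0, with INSIG1 at 1.25 and TM7SF2 at 0.99 as the highest and ABCA1 at -1.71 and ABCG1, a triangle at the lower edge for a value below the axis, as the lowest.

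Among the 5 regulators, INSIG1 rose and both SREBP genes fell. Without shCdGAP replicate 2 INSIG1 was called higher and the other 4 lower, in a fit that called 30.0% of all tested genes in each direction. INSIG1 (ENSG00000186480, chromosome 7 from 155297776 to 155310235 in GRCh38, the build of all gene positions here) encodes a membrane protein that holds SCAP and the SREBPs in the endoplasmic reticulum, and it is itself a target of the SREBPs. It had 84.3, 111 and 78.1 CPM in shCdGAP replicates 1, 2 and 3 and 37.9, 38.5 and 38.8 CPM in the shCon replicates. Every shCdGAP library lay above every shCon library, with replicate 2 the highest. The log2 fold change was 1.25 (SE 0.128, edgeR adjusted p = 0.000143), or 2.38-fold. Fits that left out 1 library gave 1.07 to 1.34. The 48 tested genes within 5 Mb of INSIG1, a window chosen after the data were seen, had a median log2 fold change of 0.29. The part of this stretch in the value for INSIG1 was not tested. INSIG2 (chromosome 2 from 118088452 to 118110997), the relative of INSIG1 with the same role, had 28.9, 38.4 and 25.3 CPM in shCdGAP and 29.7, 31.1 and 32.2 CPM in shCon libraries. The shCon libraries all lay inside the range of the shCdGAP libraries (adjusted p = 0.982 by edgeR). Without shCdGAP replicate 2 its log2 fold change was -0.20 (adjusted p = 0.000991), so that 1 library decides the call for INSIG2.

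SREBF1 (chromosome 17 from 17810399 to 17837002) encodes SREBP-1, the form tied most to fatty acid genes and itself an LXR target. It had 68.3, 82.4 and 66.3 CPM in shCdGAP and 94.4, 90.8 and 95.3 CPM in shCon libraries. The groups did not overlap, and the log2 fold change was -0.37 (SE 0.0779, edgeR adjusted p = 0.00356). SREBF2 (chromosome 22 from 41833079 to 41907308) encodes SREBP-2, the form tied most to cholesterol genes. It had 108, 126 and 103 CPM in shCdGAP and 144, 142 and 142 CPM in shCon libraries. Again the groups were apart, with a log2 fold change of -0.34 (SE 0.0678, edgeR adjusted p = 0.00248). Both calls are near the threshold. SREBF1 no longer passed 0.01 without shCdGAP replicate 1 or 3 or without shCon replicate 1 or 3 (adjusted p up to 0.0169), and SREBF2 no longer passed without shCdGAP replicate 1 (adjusted p = 0.0131). SCAP, the sterol sensor that escorts the SREBPs, had 165, 175 and 161 CPM in shCdGAP and 179, 185 and 183 CPM in shCon libraries. Its libraries did not overlap, but its log2 fold change of -0.12 did not pass (adjusted p = 0.0242). Without shCdGAP replicate 2 it was -0.17, past the threshold (adjusted p = 5.27e-07).

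**Figure D2:**
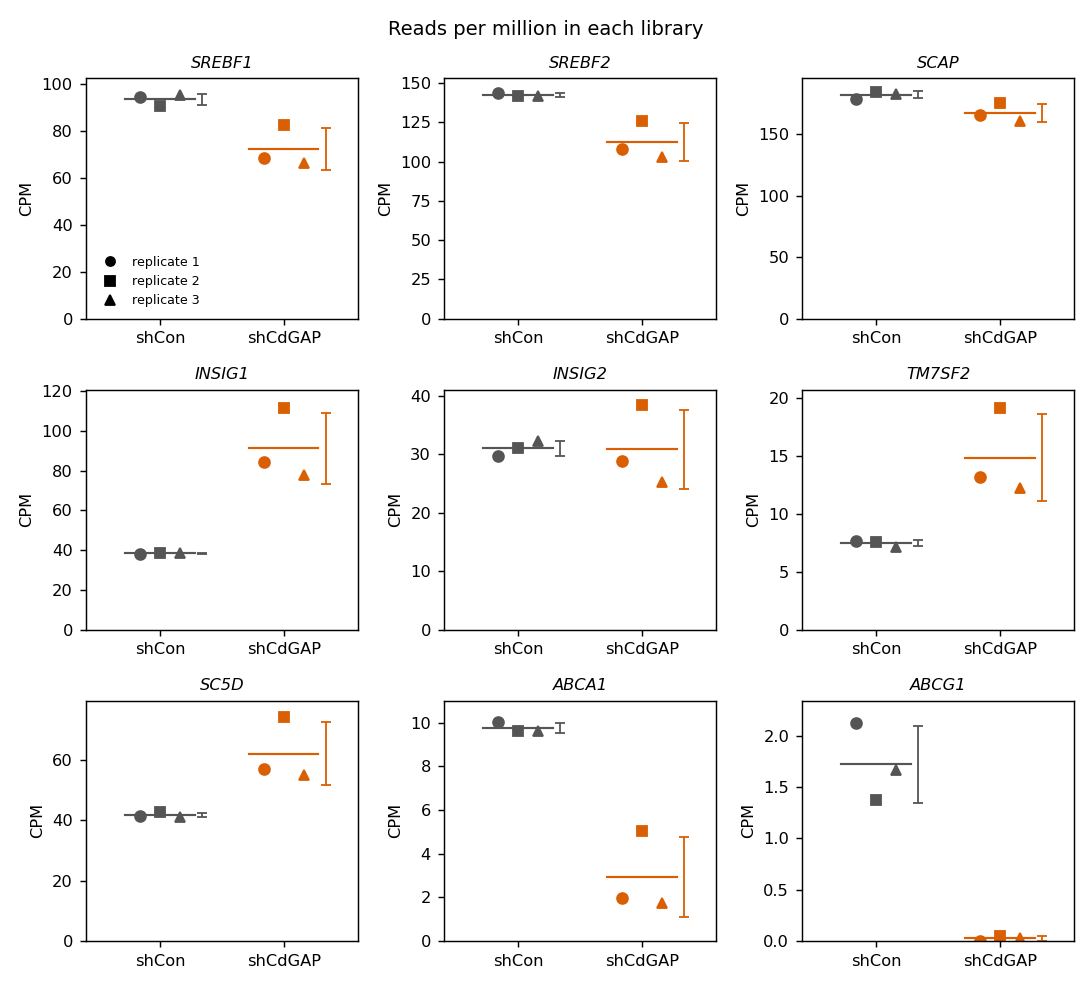
Each panel gives the CPM of 1 gene in the 3 shCon and 3 shCdGAP libraries, with a line at the group mean and a bar of 1 SD beside it, on an axis from 0. INSIG1, TM7SF2 and SC5D are higher in every shCdGAP library, SREBF1, SREBF2, SCAP, ABCA1 and ABCG1 are lower in every one, INSIG2 overlaps, and the square for shCdGAP replicate 2 is the highest of its group in all 9 panels.

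The promoters below are shown because SREBF2 holds the sole match of the list to the sterol regulatory element searched, and the other 4 belong to the genes with the largest called changes that had an entry in the promoter table. Each is the 250 bases before the RefSeq start site in build GRCh38.p14, written in the direction of the gene. Capitals mark exact matches on either strand to the sterol regulatory element TCACNCCAC, the E-box CACGTG, which SREBPs and other factors can bind, and the CCAAT box, which reads ATTGG on the other strand and binds NF-Y, a known partner of the SREBPs.
SREBF2 (chr22:41832855-41833104, plus strand): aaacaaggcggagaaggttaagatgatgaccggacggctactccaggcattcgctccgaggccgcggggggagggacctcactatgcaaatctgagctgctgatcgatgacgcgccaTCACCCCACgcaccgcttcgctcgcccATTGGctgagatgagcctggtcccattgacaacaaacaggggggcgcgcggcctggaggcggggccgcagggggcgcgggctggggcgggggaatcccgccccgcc
INSIG1 (chr7:155297628-155297877, plus strand): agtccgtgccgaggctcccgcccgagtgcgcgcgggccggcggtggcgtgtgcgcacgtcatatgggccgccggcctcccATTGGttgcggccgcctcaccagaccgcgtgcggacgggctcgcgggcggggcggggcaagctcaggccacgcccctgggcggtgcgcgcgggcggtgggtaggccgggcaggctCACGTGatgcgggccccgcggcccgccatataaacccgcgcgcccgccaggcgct
TM7SF2 (chr11:65111622-65111871, plus strand): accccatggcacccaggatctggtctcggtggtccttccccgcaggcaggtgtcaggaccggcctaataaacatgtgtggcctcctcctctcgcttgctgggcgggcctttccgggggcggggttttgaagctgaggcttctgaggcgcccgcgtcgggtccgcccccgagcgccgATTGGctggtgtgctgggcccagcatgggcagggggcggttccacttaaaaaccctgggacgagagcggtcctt
SC5D (chr11:121292521-121292770, plus strand): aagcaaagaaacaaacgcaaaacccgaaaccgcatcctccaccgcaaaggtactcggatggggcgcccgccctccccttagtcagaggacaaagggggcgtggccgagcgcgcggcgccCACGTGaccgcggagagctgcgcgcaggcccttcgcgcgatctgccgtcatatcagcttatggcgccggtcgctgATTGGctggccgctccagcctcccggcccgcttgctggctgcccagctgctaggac
ABCA1 (chr9:104928156-104928405, minus strand): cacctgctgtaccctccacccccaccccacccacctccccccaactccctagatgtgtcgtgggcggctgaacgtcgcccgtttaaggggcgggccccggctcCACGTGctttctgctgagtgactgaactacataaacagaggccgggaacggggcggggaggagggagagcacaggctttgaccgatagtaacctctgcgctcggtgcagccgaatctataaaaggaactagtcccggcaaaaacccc

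The 4 motifs, including the GC box GGGCGG bound by SP1, were counted in windows from 250 bases before to 50 after the start site, 300 bases in all. RefSeq windows were found for 30 of the 34 genes, and FDFT1, SQLE, ABCG1 and FASN had no entry. The sterol regulatory element TCACNCCAC was found in 1 of 30 windows, that of SREBF2, against 1.15% of 27305 promoters of all genes and 1.04% of 11490 promoters of tested genes. A CCAAT box was in 19 of the 30 windows (63.3%), against 35.7% of all promoters and 36.8% of those of tested genes. INSIG1, TM7SF2 and SC5D, which rose, and SREBF2, which fell, each held 1 in the stretch shown, and ABCA1 held none. The E-box was in 6 of the 30 windows, against 7.43% and 9.90%, among them INSIG1 and SC5D, which rose, and LSS and ABCA1, which fell. A GC box was in 27 of the 30 windows, against 44.6% and 69.0%. A CCAAT or GC box match was thus common to genes that rose, fell and did not pass. No capital stretches of the promoters shown overlap. These are matches of letters and not mapped binding sites.

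In the route from acetyl-CoA units to farnesyl diphosphate, 3 of 6 genes rose and 2 fell, where 24.1% of all genes were called higher and 22.0% lower. The counts were again 3 and 2 without shCdGAP replicate 2, against 30.0% of all tested genes in each direction. MVK and PMVK, the consecutive kinases that phosphorylate mevalonate, rose. MVK (chromosome 12 from 109573255 to 109598117) had 33.9 ± 0.283 CPM in shCdGAP and 24.6 ± 2.23 CPM in shCon cells (n = 3, SD), a log2 fold change of 0.46 (SE 0.0657, edgeR adjusted p = 0.000317). The 89 tested genes within 5 Mb of MVK, a window chosen after the data were seen, had a median log2 fold change of 0.32, and the part of this stretch in the value for MVK was not tested. PMVK had 51.0 ± 0.762 CPM in shCdGAP against 38.9 ± 1.84 CPM in shCon cells (n = 3, SD), a log2 fold change of 0.39 (adjusted p = 0.000107). IDI1, which turns isopentenyl diphosphate into its isomer, rose by 0.18 on the log2 scale (adjusted p = 0.00593). That call was lost when any library other than shCdGAP replicate 2 was left out, with adjusted p up to 0.0457, and also with DESeq2 (adjusted p = 0.0201), with TMM factors that left out chromosomes 9 and 13 (adjusted p = 0.0107) and with the replicate number as a block (adjusted p = 0.0158).

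The first and last genes of this stretch moved the other way. HMGCS1, which makes HMG-CoA, fell by 0.19 on the log2 scale (adjusted p = 0.00417), a call lost without shCdGAP replicate 1 or 3 or without shCon replicate 1 or 3 (adjusted p up to 0.0187) or with the block (adjusted p = 0.0118). FDPS, which makes farnesyl diphosphate, had 182 ± 14.6 CPM in shCdGAP and 228 ± 1.19 CPM in shCon cells (n = 3, SD). The groups were apart and the log2 fold change was -0.33 (SE 0.0539, edgeR adjusted p = 0.000766). FDPS has 8 named pseudogene copies, on which 34 reads were counted in all libraries together, against 48321 on FDPS itself. Reads that match several copies were not counted, so its level is less certain. MVD, the decarboxylase between PMVK and IDI1, had overlapping groups (log2 fold change -0.05, SE 0.0673, adjusted p = 0.531).

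From farnesyl diphosphate to lanosterol, SQLE rose, LSS fell and FDFT1 did not pass. With shCdGAP replicate 2 left out, 1 of the 3 was called higher and 2 lower, against 30.0% of all tested genes in each direction. SQLE, the squalene epoxidase that is a rate-limiting step of sterol synthesis, had 155 ± 18.5 CPM in shCdGAP and 116 ± 2.17 CPM in shCon cells (n = 3, SD). All shCdGAP libraries were above the shCon libraries, with a log2 fold change of 0.42 (SE 0.0759, edgeR adjusted p = 0.00148). LSS, which closes the sterol ring system to lanosterol, fell from 69.8 ± 1.74 to 58.2 ± 2.08 CPM (n = 3, SD), a log2 fold change of -0.26 (adjusted p = 0.000664). FDFT1, the squalene synthase, had a log2 fold change of -0.17 (adjusted p = 0.0809) with all libraries and of -0.28 without shCdGAP replicate 2 (adjusted p = 8.27e-11).

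Of the 8 enzymes from lanosterol to cholesterol, 3 rose, none was called lower and 5 did not pass, against 24.1% called higher and 22.0% called lower of all tested genes. The counts stayed at 3 and 0 without shCdGAP replicate 2, against 30.0% of all tested genes in each direction. None of the 8 was lower at an unadjusted p under 0.05 by edgeR, and DESeq2 and limma also called 0 of them lower. TM7SF2, a sterol C14 reductase, had the largest change of any enzyme in the list. It had 13.2, 19.1 and 12.2 CPM in shCdGAP and 7.68, 7.58 and 7.14 CPM in shCon libraries. The groups were well apart, with a log2 fold change of 0.99 (SE 0.164, edgeR adjusted p = 0.00103). TM7SF2 (chromosome 11 from 65111845 to 65116384) shares 16 exonic bases with VPS51 on the same strand, whose log2 fold change was -0.35. SC5D, the sterol C5 desaturase (chromosome 11 from 121292453 to 121308694), had 57.1, 74.1 and 55.0 CPM in shCdGAP and 41.4, 42.6 and 41.1 CPM in shCon libraries. Every shCdGAP library was higher, and the log2 fold change was 0.58 (SE 0.108, edgeR adjusted p = 0.00242). It missed 0.01 without any 1 shCon library (adjusted p up to 0.0123). DHCR7, which makes cholesterol in the last step, rose by a log2 fold change of 0.18 (adjusted p = 0.00310), and its call was lost without shCdGAP replicate 1 or any 1 shCon library (adjusted p up to 0.0288).

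The other five enzymes, which remove the methyl groups of lanosterol and shift its double bonds, had log2 fold changes between -0.07 for NSDHL and 0.13 for MSMO1, and their groups overlapped. CYP51A1, the lanosterol demethylase, had a log2 fold change of 0.06 (SE 0.0841, edgeR adjusted p = 0.588). It shares 78.8% of its exonic bases with LRRD1 on the same strand, and reads in shared bases were not counted, so its level is understated. HSD17B7, the sterol ketoreductase, had a log2 fold change of 0.02 (SE 0.0717), and its 2 named pseudogenes drew 274 reads against 3078 on the gene itself. EBP, a sterol isomerase, was at 94.4 ± 2.59 CPM in shCdGAP and 92.5 ± 1.53 CPM in shCon cells (n = 3, SD). Over all 17 cholesterol enzymes, 7 were called higher and 3 lower, against 24.1% and 22.0% of all tested genes. Their median log2 fold change was 0.06, against 0.01 for all tested genes. Without shCdGAP replicate 2 the counts were 7 and 4, against 30.0% of all genes in each direction, and the median was -0.00.

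Of the 3 transport genes, both exporters fell, also without shCdGAP replicate 2, and STARD4 did not pass. ABCA1, which loads cholesterol onto apolipoproteins at the cell surface, lies on chromosome 9 from 104781002 to 104928237. It had 80, 220 and 60 reads in shCdGAP and 421, 405 and 318 reads in shCon libraries, or 1.97, 5.05 and 1.75 CPM against a mean of 9.75 ± 0.246 CPM (n = 3, SD). Every shCdGAP library lay below the shCon libraries, and replicate 2 was above the other two. The log2 fold change was -1.71 (SE 0.374, edgeR adjusted p = 0.00774). Without shCdGAP replicate 2 it was -2.39 (adjusted p = 2.46e-21), and without any 1 of the other libraries the adjusted p was above 0.01, up to 0.0227. With no filter on low counts it was 0.0625. The 31 tested genes within 5 Mb of ABCA1 had a median log2 fold change of -0.54. The part of this stretch in the value for ABCA1 was not tested.

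ABCG1, which exports sterol to lipoprotein particles (chromosome 21 from 42199689 to 42297244), was counted at 0, 2 and 1 reads in shCdGAP replicates 1 to 3, against 89, 58 and 55 reads in shCon. It was near the limit of detection in every shCdGAP library, including replicate 2. Set against a floor of 3 reads per library, it was at least 22.4-fold lower in shCdGAP cells (adjusted p = 7.40e-06 by edgeR, and at most 0.000107 when each library was left out). Its 82 tested neighbours within 5 Mb had a median log2 fold change of -0.12. STARD4, which carries sterol between membranes inside the cell, had a log2 fold change of 0.19 that did not pass (adjusted p = 0.203).

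In fatty acid synthesis the suppliers of acetyl-CoA rose, while ACACA and FASN, which build the chain, did not pass. ACLY, which makes acetyl-CoA from citrate, had 302 ± 3.70 CPM in shCdGAP and 248 ± 3.49 CPM in shCon cells (n = 3, SD). The libraries of each group lay close together and the groups were apart, with a log2 fold change of 0.28 (SE 0.0318, edgeR adjusted p = 6.89e-05). ACSS2, which makes acetyl-CoA from acetate, had 69.6 ± 9.98 CPM against 52.0 ± 0.967 CPM (n = 3, SD). Its log2 fold change was 0.42 (SE 0.0911, edgeR adjusted p = 0.00430), a call lost without any 1 shCon library (adjusted p up to 0.0217). ACACA, the carboxylase that commits acetyl-CoA to the route, had a log2 fold change of 0.03 (SE 0.0513, edgeR adjusted p = 0.617). FASN, the synthase, had 721 ± 68.5 CPM in shCdGAP and 664 ± 27.4 CPM in shCon cells (n = 3, SD), with a log2 fold change of 0.12 (adjusted p = 0.160). Without shCdGAP replicate 2 that was 0.19 (adjusted p = 1.41e-06).

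Among the elongases and desaturases, FADS1 rose and the other 4 genes did not pass. FADS1, the delta-5 desaturase of polyunsaturated fatty acids, had 264 ± 6.0 CPM in shCdGAP and 212 ± 0.330 CPM in shCon cells (n = 3, SD). The libraries did not overlap, with a log2 fold change of 0.32 (SE 0.0325, edgeR adjusted p = 4.02e-05). FADS2, the delta-6 desaturase, is annotated from 61792980 to 61867354 on the opposite strand of chromosome 11. FADS1, from 61799625 to 61829318, lies inside that span, and overlap of exons across strands was not tested. FADS2 had 290 ± 35.8 CPM in shCdGAP and 338 ± 4.52 CPM in shCon cells (n = 3, SD). Its libraries were also apart, in the other direction, with a log2 fold change of -0.22 (adjusted p = 0.0382). Without shCdGAP replicate 2 it was -0.33 (adjusted p = 1.71e-14). FADS2 shares 49 exonic bases with FEN1 on the same strand, which had a log2 fold change of -0.45. SCD, the stearoyl-CoA desaturase that makes oleate, had a log2 fold change of -0.05 (adjusted p = 0.521), ELOVL6 of 0.02 (adjusted p = 0.697) and ELOVL5 of -0.12 (adjusted p = 0.0177). Over the 9 fatty acid genes, 3 were called higher and none lower by edgeR, against 24.1% and 22.0% of all tested genes. Their log2 fold changes had a median of 0.03. At an unadjusted p under 0.05 by edgeR 2 were lower, ELOVL5 and FADS2, and DESeq2 and limma called 0 lower. That count rests on shCdGAP replicate 2. Without this library 4 of the 9 were called higher, with FASN added, and ELOVL5 (log2 fold change -0.16), SCD (-0.15) and FADS2 (-0.33) were called lower. In the same fit 30.0% of all tested genes were called in each direction.

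Per kilobase of exon, the pathway was dominated by a few genes in both groups. On the TPM scale (reads per exon length, as a share of all genes, computed here from the deposited counts and exon lengths), SCD was the highest, at 467 ± 7.04 TPM in shCon and 455 ± 52.8 TPM in shCdGAP cells (n = 3, SD). FASN followed with 295 ± 11.8 TPM in shCon and 324 ± 28.7 TPM in shCdGAP cells. FDPS was next in shCon cells with 245 ± 1.94 TPM, and ACLY was next in shCdGAP cells with 234 ± 3.06 TPM. At the low end, ABCG1 was at 1.12 ± 0.245 TPM in shCon cells and ABCA1 at 3.43 ± 0.0860 TPM, below every enzyme. INSIG1 rose from 42.0 ± 0.446 to 101 ± 20.6 TPM, while INSIG2 stood at 31.4 ± 1.24 TPM in shCon and 31.5 ± 7.24 TPM in shCdGAP cells. The 8 genes from lanosterol to cholesterol summed to 530 ± 4.40 TPM in shCon and 582 ± 35.8 TPM in shCdGAP cells. Those of the mevalonate route summed to 521 ± 5.75 TPM and 515 ± 24.5 TPM.

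**Figure D3:**
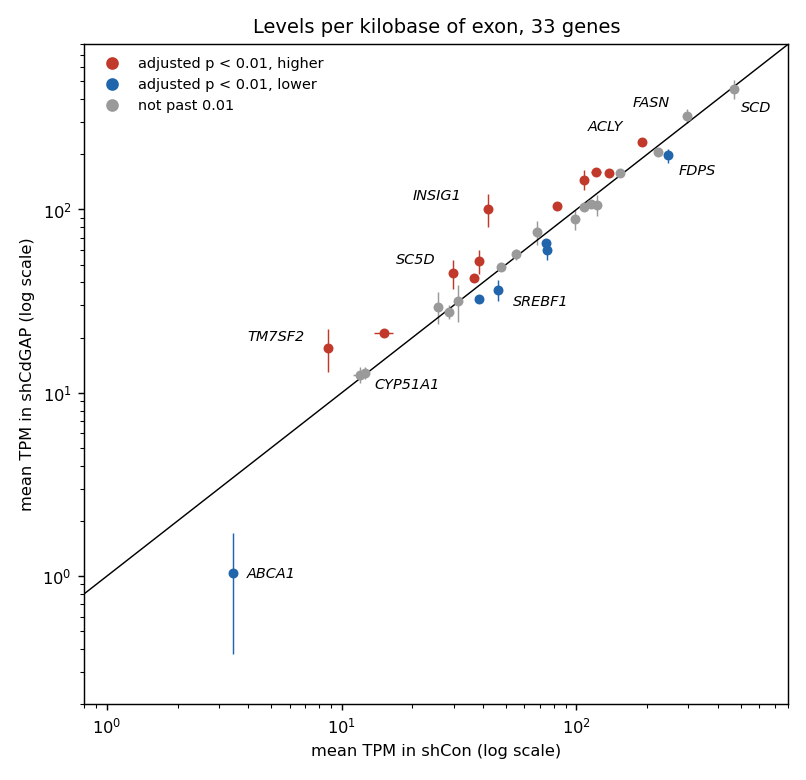
Each point is 1 of 33 genes (ABCG1 is left out), with its mean TPM in shCon on the horizontal axis and in shCdGAP on the vertical axis, both on log scales, bars of 1 SD over 3 libraries, and a line of equality. Most points follow the line, with SCD at its top, INSIG1, TM7SF2 and SC5D above it and ABCA1 far below it.

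The spread within the shCdGAP group was itself patterned over these genes. Replicate 2 held the highest CPM of the 3 shCdGAP libraries for 26 of the 34 genes (76.5%), against 41.4% of all tested genes. The median ratio of replicate 2 to the mean of replicates 1 and 3 was 0.19 on the log2 scale over the 34 genes and -0.00 over all tested genes. Ratios were 1.37 for INSIG1, 1.42 for INSIG2, 1.505 for TM7SF2, 1.32 for SC5D, 1.36 for STARD4, 1.26 for MSMO1 and 2.72 for ABCA1. Thus replicate 2 was higher both for genes of sterol synthesis and for an exporter. ACLY, FADS1, PMVK and MVK showed no such gap, with ratios from 0.984 to 1.00, and FASN was lowest in replicate 2, with a ratio of 0.846. The median coefficient of variation was 8.43% in shCdGAP and 2.51% in shCon libraries over the 34 genes, and 7.70% and 3.90% over all tested genes. Without replicate 2, SCAP, INSIG2, FDFT1, FASN, ELOVL5, SCD and FADS2 also passed 0.01, and no call was lost.

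**Figure D4:**
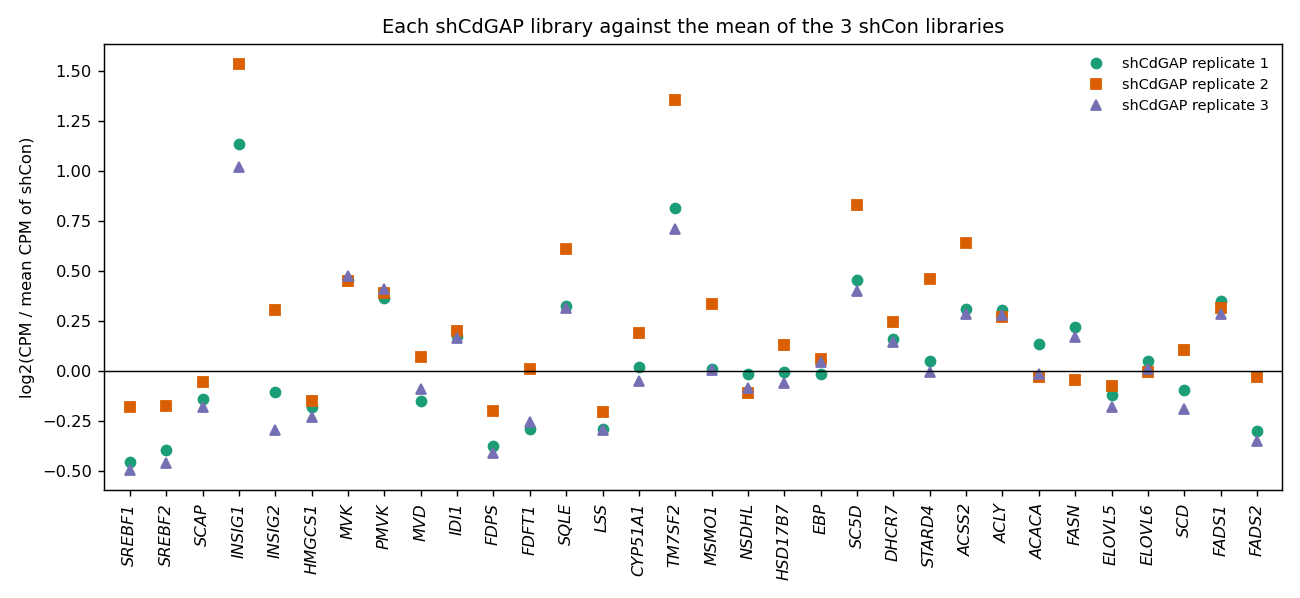
Points give, for 32 genes (ABCA1 and ABCG1 are left out), the log2 ratio of the CPM in each shCdGAP library to the mean CPM of the 3 shCon libraries. Replicates 1 and 3 lie close together for most genes, and replicate 2 lies above them for genes such as INSIG1 (1.54 against 1.13 and 1.02), TM7SF2, SC5D and MSMO1.

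Other genes around these pathways were taken from 5 lists with 64 genes, of which 63 were tested. By edgeR 17 were called higher and 18 lower (55.6% in all, against 46.2% of all genes). Without shCdGAP replicate 2 these counts were 21 and 22, against 30.0% of all tested genes in each direction. Among 5 genes that process the SREBPs, PAQR3, a Golgi protein that tethers SCAP, rose from 39.6 ± 0.605 to 81.3 ± 1.90 CPM (n = 3, SD, log2 fold change 1.04, adjusted p = 1.11e-07). MBTPS2, the protease that makes the second cut, fell by 0.26 on the log2 scale (adjusted p = 0.000220), and the other three did not pass. Of all tested genes 24.1% were called higher and 22.0% lower. Again 1 was called higher and 1 lower without shCdGAP replicate 2, against 30.0% in each direction. The isoprenoid branch leads from farnesyl diphosphate to dolichol, ubiquinone and prenylated proteins. In it 1 of 11 genes rose and 6 fell, against 24.1% and 22.0% of all tested genes. Without shCdGAP replicate 2 the counts were 2 and 6, against 30.0% in each direction. DHDDS and NUS1 encode the subunits of a single enzyme of dolichol synthesis, and they moved apart. DHDDS rose by a log2 fold change of 0.34 (adjusted p = 0.00292), a call lost without any 1 library other than shCdGAP replicate 2 (adjusted p up to 0.0195). NUS1 had a log2 fold change of -0.54 (adjusted p = 1.09e-05).

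Of 10 genes of sterol uptake, storage and LXR signalling, 2 were called higher and 2 lower, against 24.1% and 22.0% of all tested genes. Without shCdGAP replicate 2 these counts were 4 and 3, against 30.0% in each direction. VLDLR, a lipoprotein receptor, rose from 5.90 ± 0.451 to 32.3 ± 5.86 CPM (n = 3, SD), a log2 fold change of 2.45 (SE 0.136, edgeR adjusted p = 1.95e-06). Its neighbours within 5 Mb on chromosome 9 had a median log2 fold change of -0.47. NR1H3, which encodes LXR-alpha, fell from 6.28 ± 0.269 to 4.30 ± 0.249 CPM (log2 fold change -0.55, adjusted p = 0.00100). The remaining called genes, named after their values were seen, were NPC1, which moves cholesterol out of lysosomes, at a log2 fold change of 0.89 (adjusted p = 2.33e-05), and NR1H2, which encodes LXR-beta, at -0.22 (adjusted p = 0.000984).

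Of 21 tested genes of other fatty acid and acyl-CoA steps, 11 rose and 2 fell, against 24.1% called higher and 22.0% called lower of all tested genes. Leaving out shCdGAP replicate 2 gave 12 and 4, against 30.0% of all tested genes in each direction. ELOVL7, an elongase of long saturated chains, rose from 1.44 ± 0.196 to 10.2 ± 0.668 CPM (log2 fold change 2.83, SE 0.122, edgeR adjusted p = 2.32e-07). ACSL3, which activates fatty acids at the endoplasmic reticulum and lipid droplets, fell from 305 ± 5.2 to 148 ± 14.5 CPM (log2 fold change -1.04, adjusted p = 2.22e-06). The other gene that fell, named after its value was seen, was SCD5, at -0.75 (adjusted p = 0.00878), a call likewise lost without any 1 library other than shCdGAP replicate 2 (adjusted p up to 0.0264). Of 16 genes of fatty acid oxidation, which breaks the chains down again, 2 rose and 7 fell, against the same 24.1% and 22.0%. Without shCdGAP replicate 2 the counts were 2 and 8, against 30.0% in each direction. HADH, a dehydrogenase of that cycle, fell from 59.7 ± 0.508 to 28.4 ± 1.93 CPM (log2 fold change -1.07, adjusted p = 5.16e-07). ACADS, which oxidises short chains, rose by a log2 fold change of 0.37 (adjusted p = 0.00915), a call lost without shCdGAP replicate 3 or any 1 shCon library (adjusted p up to 0.0400). The other gene that rose, named after its value was seen, was HADHB, at 0.13 (adjusted p = 0.00864), a call lost without any 1 library other than shCdGAP replicate 2 (adjusted p up to 0.0669). The list's median log2 fold change was -0.07, and that of the other fatty acid genes was 0.23.

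**Figure D5:**
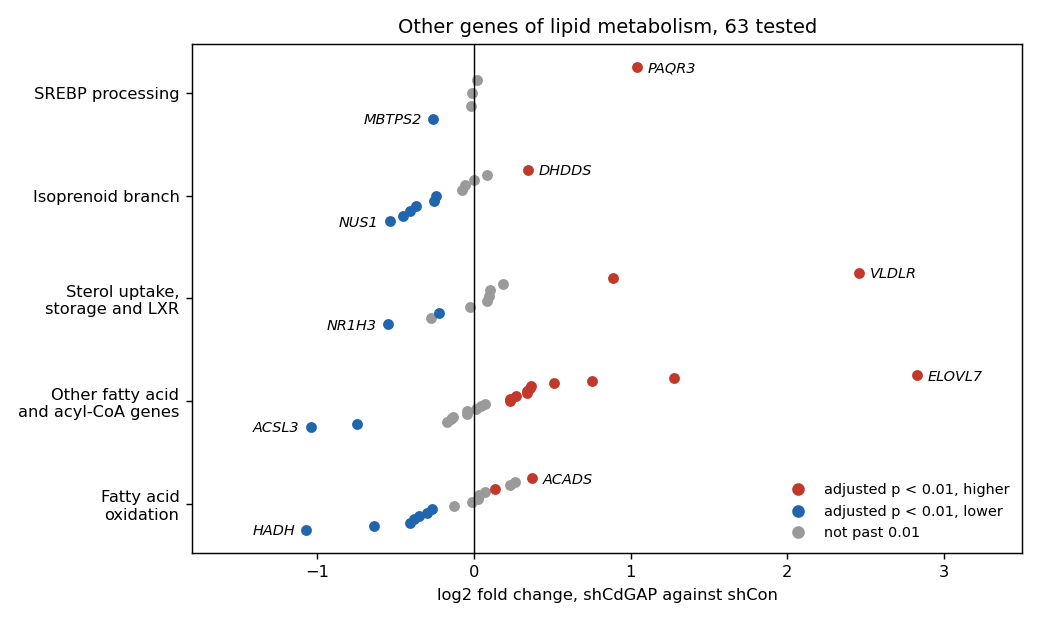
Each point is the log2 fold change of 1 gene of 5 further lists, coloured by its call at an adjusted p of 0.01, with the called gene highest and lowest in each list named. VLDLR and ELOVL7 lie far to the right at 2.45 and 2.83, and ACSL3 and HADH lie lowest at -1.04 and -1.07.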

How the data were processed

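The authors deposited raw counts per gene, one table per library, without normalization. The submitters' processing notes list STAR 2.5.1b for alignment, featureCounts 1.4.6 for counting and the GRCh38 build, as do the methods. The table headers name featureCounts 1.6.0, Ensembl release 77 and strand-specific counting of pairs, while the methods name a single-read kit. Reads with several alignments or in shared exons of one strand were not counted under these settings.

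Symbols came from a table of gene names. The 6 libraries were fitted together, unpaired, by edgeR 4.0.16 under R 4.3.3. Genes of low count were dropped by filterByExpr, libraries were scaled by TMM, and the robust quasi-likelihood test was adjusted by Benjamini-Hochberg over 16439 genes, while limma 3.58.1 and DESeq2 1.42.0 served as alternatives. The SE of a log2 fold change was its size over the root of its F value. Figures and tables used Python 3.11.15. The fit was also run on simulated counts with changes of at least 1 on the log2 scale, so that run does not cover smaller changes. With 3 libraries a side an exact permutation test reaches p = 0.1 at the lowest, so none was used. The floor of 3 reads per library covers counting error only, while the SE and p-values also hold the spread between libraries.

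All 34 genes could be named, with values in every library at least for the regulators, the exporters and called genes with an absolute log2 fold change of at least 0.5. From each further list the called genes with the highest and lowest log2 fold change were named. The genes, lists and promoters shown were chosen with earlier results of these data known. Some genes of the marker lists are not reported here. Alternatives were another test, other scalings and filters on low counts, another threshold, a block for the replicate number, and fits with 1 library fewer.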

Additional observations from a re-analysis of the deposited data

How the results depend on the processing

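Leaving out each library in turn moved the number of the 34 genes called lower between 3 and 13 and the number called higher between 7 and 12. The 13 came without shCdGAP replicate 2. The number called over all genes moved as well. It was lowest without shCon replicate 1, at 5787 of 16833 tested genes, and highest without shCdGAP replicate 2, at 10035 of 16727. With a further limit of 1 on the log2 fold change, 1 of the 34 genes was called higher and 2 lower, and of the other pathway genes 4 were called higher and 2 lower. These limits follow from the rule itself. Another test, scaling or filter kept every count within 1.5 times its value, and the median over the 17 cholesterol enzymes stayed between -0.00 and 0.10. Of single values, 414 kept their direction and side of the threshold, 34 lost the call, 10 gained it and 17 changed sign, the last among genes not called. INSIG2 was at 0.0056 with at least 10 reads in every library, 0.021 with library totals, 0.0013 with no filter and 0.0072 with upper-quartile scaling. ELOVL6 was at -0.0024 with TMM without chromosomes 9 and 13. Over fits with 1 library fewer, INSIG2 ranged from -0.20 to 0.11, CYP51A1 from -0.027 to 0.097, MSMO1 from -0.0013 to 0.17, HSD17B7 from -0.041 to 0.054, EBP from -3.2e-05 to 0.041, ACACA from -0.033 to 0.054 and ELOVL6 from -0.0093 to 0.020. The cause was not tested.

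Same-numbered libraries of the groups deviated together with correlations of 0.0306 to 0.0499, under 0.1, and are not described as paired, although each of the 6 libraries correlated best with its own number. With the replicate number as a block, 10 of the 34 genes were called higher and 6 lower, and HMGCS1 (adjusted p = 0.0118) and IDI1 (adjusted p = 0.0158) did not pass. Over all genes 7229 were called, against 7587. ABCG1, at 0 to 2 reads in shCdGAP libraries, is limited by depth.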
